A study of Mus musculus with 6 samples.

Results

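The clustered protocadherins are a family of cell surface cadherins whose genes lie in 3 neighbouring groups, alpha, beta and gamma, on mouse chromosome 18. Members were taken as every gene of the deposited table on that chromosome whose symbol starts with Pcdha, Pcdhb or Pcdhg. This gave 48 of the 25166 genes, namely 5 alpha, 21 beta and 22 gamma genes. The family was picked because many beta genes had lower values in Sirt6mKO than in control libraries of these same data. Their differences between the groups are therefore given below as a description, and counts of members past a threshold only sort the genes by the values that the choice rested on. Another 9 alpha genes and *Pcdhb1* stand in the annotation and are absent from the deposited table, which holds no gene with 0 in every library.

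Each alpha and gamma gene has its own variable exon with its own promoter, which is spliced to 3 constant exons shared by the whole group, whereas a beta gene encodes its protein without constant exons. The variable exon carries the extracellular cadherin repeats, the transmembrane segment and part of the cytoplasmic tail. In neurons each cell uses a few of the promoters, and matching isoforms on facing membranes bind each other, which lets a neuron tell its own branches from those of other cells. Promoter choice is known to depend on DNA methylation, on the DNA-binding factor CTCF and on cohesin, and heterochromatin factors silence the clusters in many other cell types. Muscle stem cells (MuSCs), the PAX7-positive cells beneath the basal lamina of myofibers, are not a tissue in which the family is usually studied.

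RNA-seq was performed on freshly isolated MuSCs of C57BL/6 mice, with 3 libraries labelled Sirt6mKO and 3 labelled as wild type controls (Ctrl). In Sirt6mKO mice, the Pax7ICN allele expresses Cre recombinase in PAX7-positive cells and deletes floxed exons of *Sirt6*, a histone deacetylase gene. A legend of the study describes the controls as mice without Cre that carry the same floxed alleles, and the study names littermates as controls throughout. The loss of *Sirt6* and the presence of Cre therefore cannot be told apart. The age of these mice is not in the labels. The legend of the study's supplementary figure that shows these data names males at an age of 12 weeks. The study bred its Sirt6mKO mice from floxed *Sirt6*, Pax7ICN and ROSA26-YFP mice. Each library was made from 100 to 200 sorted cells, and whether cells were gated on surface proteins or on a YFP reporter is not given for these samples. The methods name the YFP gate for mice that carry both the Pax7ICN Cre and the YFP allele. If the groups were gated differently, the gate cannot be told apart from the genotype. The study calls its replicates biological. Which mice or litters each of these libraries came from is not in the sources used here, so adjusted p-values measure the spread between these libraries.

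The deposited values, called signal here, are whole numbers made by dividing the reads of a gene by 1 size factor per library. Between 1267027 and 3209958 reads per library lie behind them, with 0.729 to 1.79 units of signal per read. Control replicate 3 has the fewest reads and hence the coarsest low values. *Sirt6* itself stood at 19, 20 and 13 in libraries labelled Sirt6mKO, against 18, 17 and 20 in controls. This value sums all exons, including those outside the deleted ones, and so gives no check of the labels. Sirt6mKO below stands for the libraries labelled so. *Pax7*, the defining MuSC marker, was present in all libraries, with a signal of 3555 ± 467 in controls and 1986 ± 278 in Sirt6mKO (SD, n = 3 per group). It was lower in every Sirt6mKO library (log2 fold change -0.84 ± 0.13 SE, adjusted p = 0.0041, limma with Benjamini-Hochberg correction). The study places Cre under control of the *Pax7* promoter in the Sirt6mKO mice, and the part of that allele in the *Pax7* value was not tested. In RNA from bulk cells, fewer cells that use a gene and less RNA per cell cannot be told apart.

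To ask which isoforms MuSCs express at rest, levels in the 3 control libraries were compared per kilobase (kb) of exon. The 3 groups differed in level, with almost no alpha RNA, low beta RNA and higher gamma RNA. The median control level per kb of exon that no other gene covers was 0.267 over the 5 alpha genes, 11.5 over the 21 beta genes and 34.0 over 21 of the 22 gamma genes. The alpha median covers only genes present in the deposited values, where no gene was 0 in every library. *Pcdhga10* has no exon free of other genes, since *Gm26672* on the other strand covers its variable exon and the constant exons belong to other gamma genes as well. Since *Pcdhga10* nevertheless had a signal of 102 to 171, reads in such overlaps were not lost. Levels per kb of exon that is free of other genes on the same strand are therefore given beside the others where both differ. A length that leaves out exon covered on the other strand is then too short, and levels on that basis run high. The median of the gamma genes was 33.5 on that basis and that of the beta genes was again 11.5.

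The alpha genes were at or near 0 in every library. *Pcdha8*, the first alpha gene of the table in gene order, had a signal of 1, 0 and 0 in Sirt6mKO against 0, 1 and 0 in controls. Of the C-type genes, which neurons express more broadly than the other isoforms, *Pcdhac2* had 0, 0 and 2 in Sirt6mKO and 0, 1 and 0 in controls. *Pcdhac1* is absent from the deposited values. *Pcdha12* had a signal of 2 in control replicate 3 and 0 in all other libraries. A symbol, *Pcdha11*, stands for a pair of rows, with up to 2 in 1 library for ENSMUSG00000007440 and up to 2 for ENSMUSG00000102206. Summed over all 5 genes, Sirt6mKO replicates 1, 2 and 3 gave 1, 0 and 3, against 1, 3 and 6 in control replicates 1, 2 and 3. No alpha gene had more than 2 reads in a library, under the limit of 3 reads that a count of 0 allows. None was tested, and a difference between the groups was not detectable at this depth.

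*Pcdhgc3*, a C-type gamma gene at the far end of the gamma cluster, had the highest level of the family in every library. Its signal in the controls was 980, 984 and 760. Per kb of exon the level was 269 ± 37.9 (SD, n = 3) when exon covered by *BC037039* on the other strand was kept in the length. It was 499 ± 70.4 without that exon, a length that runs high as described above for such overlaps. The other C-type genes of the cluster stood far below it, with 20.7 ± 5.84 per kb for *Pcdhgc4* and 11.6 ± 2.01 for *Pcdhgc5* (SD, n = 3), the latter being the lowest gamma gene in the mean of the controls. *Pcdhgc3* held 31.0 ± 3.71% of the summed gamma signal in controls and 29.0 ± 1.16% in Sirt6mKO (SD, n = 3 per group), and the groups overlapped. Among the A and B types, *Pcdhgb6* (68.7 ± 3.94 per kb, SD, n = 3) had a mean signal next to that of *Pcdhgc3* and *Pcdhgb5* (31.2 ± 5.18 per kb) came after it.

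**Figure D1:**
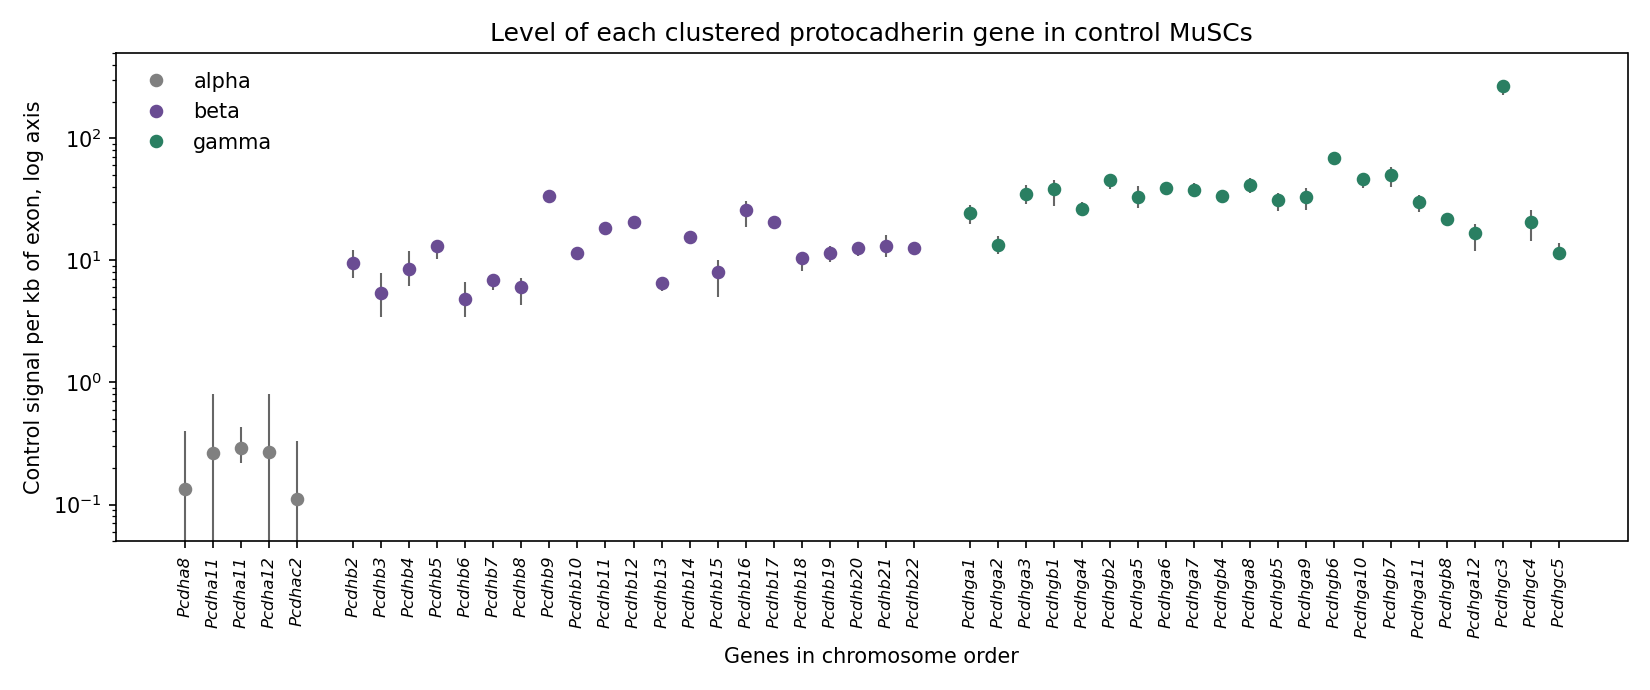
Control level of all 48 clustered protocadherin genes in chromosome order, as signal per kb of exon free of other genes on the same strand (log axis). Points are means of 3 control libraries and bars run from the lowest to the highest library. The alpha genes lie below 1, and *Pcdhgc3* stands above all others.

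Among the beta genes, *Pcdhb9* had a control level of 33.9 ± 1.24 per kb of exon (SD, n = 3), above *Pcdhb16* at 25.8 ± 6.12 and *Pcdhb17* at 20.8 ± 2.47. *Pcdhb12* stood at 20.7 per kb of exon when the part covered by *Gm37446* on the other strand was kept in the length, and at 56.6 ± 2.90 without that part. The lowest were *Pcdhb6* at 4.79 ± 1.66 and *Pcdhb3* at 5.37 ± 2.31 per kb (SD, n = 3), which do not differ beyond their spread. By signal rather than by level per kb, *Pcdhb14*, *Pcdhb16* and *Pcdhb17* were the highest beta genes over all libraries.

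The comparison of Sirt6mKO with control MuSCs asks how the loss of *Sirt6* in these cells changes their RNA, and it was fitted on log2(signal + 1) for the 14227 genes that averaged a signal of 5 or more. All 21 beta and 22 gamma genes and no alpha gene were among them. In Sirt6mKO, 15 beta genes had lower and 6 had higher values than in controls, whereas 21 of 22 gamma genes had higher values by small amounts. Of all tested genes, 49.6% had lower and 50.4% had higher values. The gamma count was 17 of 22 without Sirt6mKO replicate 2, 19 without control replicate 2 and 20 without control replicate 3. It was 21 without any of the other libraries. The median log2 fold change was -0.42 over the beta genes and 0.23 over the gamma genes, beside 0.0019 over all genes tested. Past both thresholds, a limma adjusted p up to 0.05 together with a 2-fold difference, were 7 beta genes, all lower, beside 1.02% of all tested genes in that direction. No member was higher past both thresholds, against 1.57% of all tested genes. By the adjusted p alone 8 beta genes were lower (1.88% of all genes) and no member was higher (2.64%). The members were chosen on this contrast, and nothing is read from these shares.

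**Figure D2:**
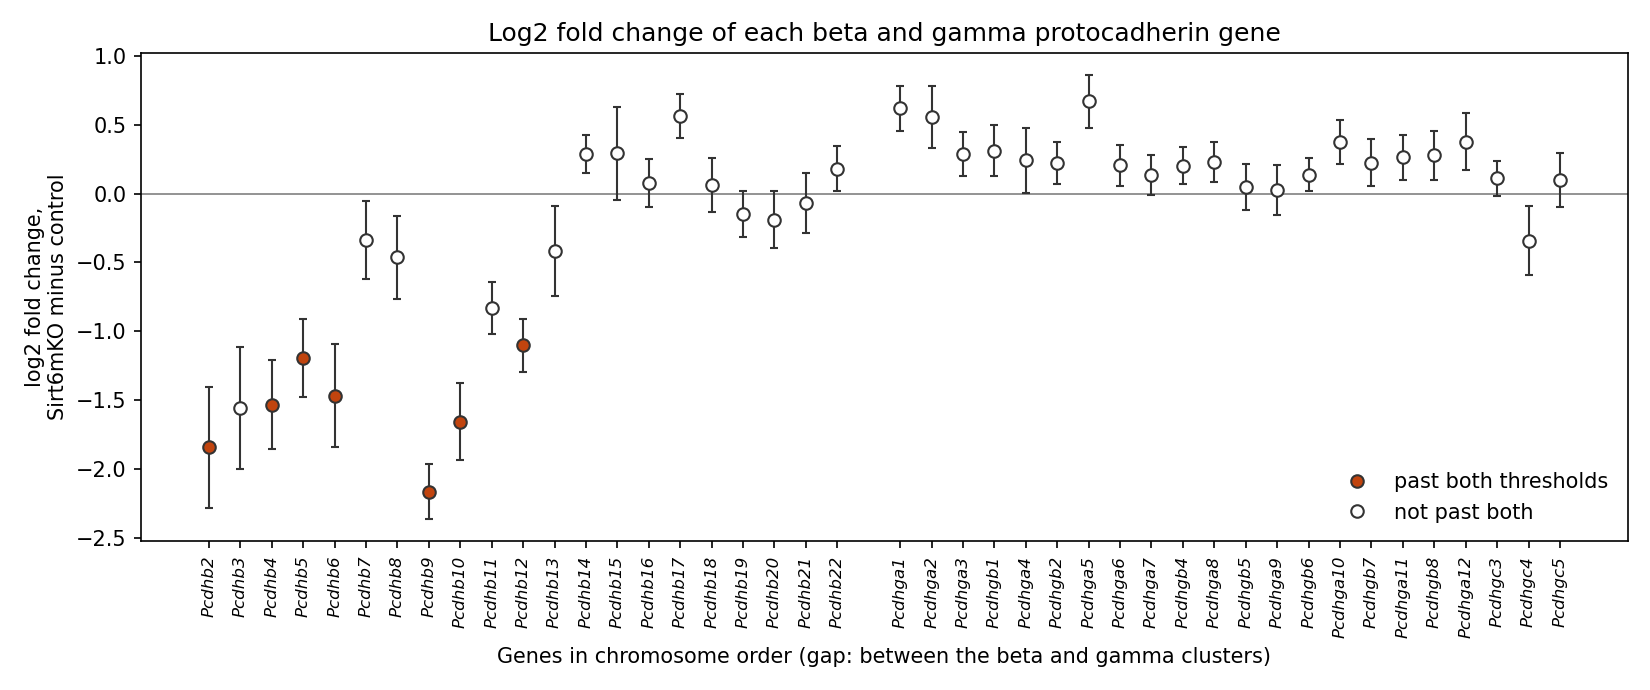
Log2 fold change (Sirt6mKO minus control, on the log2(signal + 1) scale) of each beta and gamma gene in chromosome order, with bars of 1 standard error from 3 libraries per group. Filled points are the 7 beta genes past both thresholds, all between *Pcdhb2* and *Pcdhb12*. The gamma genes lie between -0.34 and 0.67.

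The lower beta genes were next to each other. All 11 genes from *Pcdhb2* to *Pcdhb12*, a stretch of 144 kb, had lower means in Sirt6mKO, with log2 fold changes of -2.16 to -0.34. From *Pcdhb13* to *Pcdhb22*, a stretch of 82.0 kb, the 10 genes ran from -0.42 to 0.56, and 6 of them were above 0. This division of the beta genes was made after their values were seen and carries no test. In 9 of the 11 genes of the first stretch every Sirt6mKO library lay below every control library, as it did in 10.1% of all tested genes, and the exceptions were *Pcdhb7* and *Pcdhb8*. In the second stretch *Pcdhb14* and *Pcdhb17* had every Sirt6mKO library above every control library (11.1% of all tested genes).

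Summed over *Pcdhb2* to *Pcdhb12*, Sirt6mKO replicates 1, 2 and 3 gave 182, 204 and 184, against 485, 497 and 424 in control replicates 1, 2 and 3. All Sirt6mKO sums were thus less than the lowest control sum, with a ratio of the means of 0.405. Over *Pcdhb13* to *Pcdhb22* the sums were 776, 895 and 740 in Sirt6mKO and 804, 722 and 652 in controls, and the groups overlapped, with a ratio of 1.11. The genes of the first stretch held 39.3 ± 1.58% of the beta signal in controls and 19.2 ± 0.690% in Sirt6mKO (SD, n = 3 per group). Over all 21 beta genes the sums were 958, 1099 and 924 in Sirt6mKO against 1289, 1219 and 1076 in controls, which overlapped, since Sirt6mKO replicate 2 stood above control replicate 3. The ratio of these means was 0.832.

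**Figure D3:**
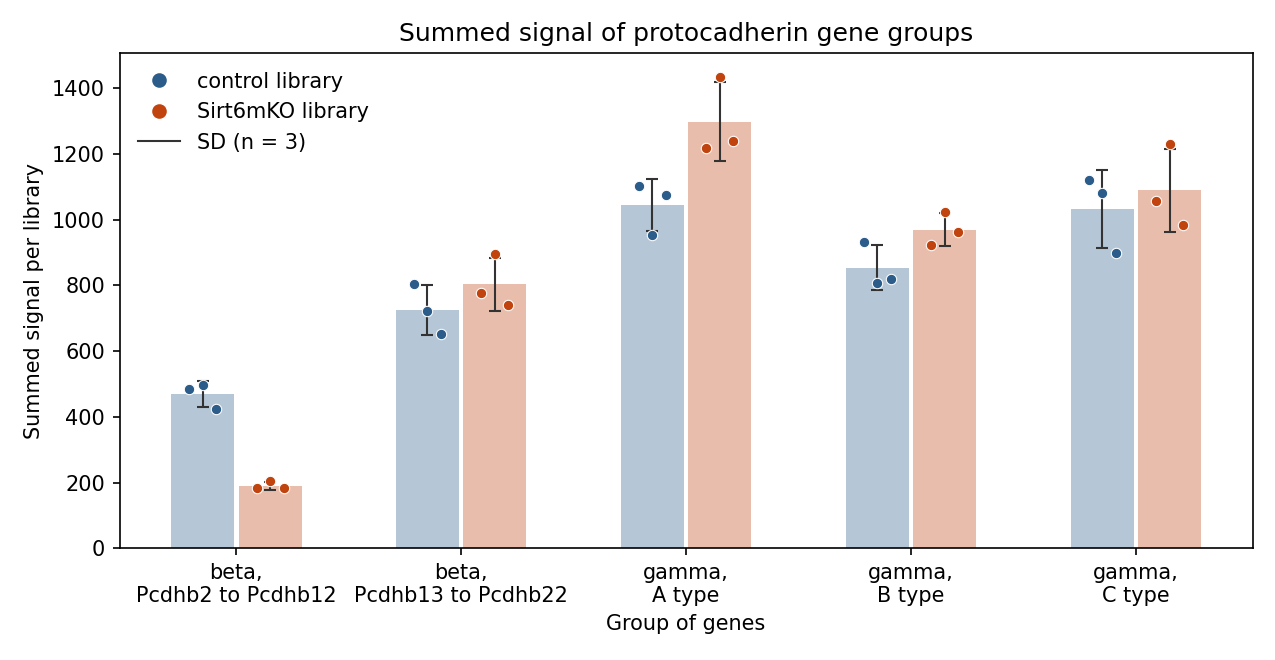
Summed signal of 5 groups of genes in each library. Bars are group means with the SD of 3 libraries, and points are libraries. For *Pcdhb2* to *Pcdhb12* the Sirt6mKO libraries sit between 182 and 204 and the controls between 424 and 497, while the groups overlap for *Pcdhb13* to *Pcdhb22* and for the B and C types of gamma.

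*Pcdhb9* (ENSMUSG00000051242, chromosome 18 of GRCm38, 37400855 to 37403909) had the lowest log2 fold change of the family. Sirt6mKO replicates 1, 2 and 3 had a signal of 20, 20 and 28, against 108, 101 and 102 in control replicates 1, 2 and 3. The Sirt6mKO libraries were all far below the controls, which were close to each other. The log2 fold change was -2.16 with a standard error of 0.20, between -2.32 and -2.08 when 1 library was left out. It rests on 24, 27 and 30 reads in Sirt6mKO and 88, 139 and 57 in controls.

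*Pcdhb10* (ENSMUSG00000045657, 37411664 to 37414514) follows next on the chromosome. Sirt6mKO libraries had 10, 10 and 9 and controls 37, 31 and 30, without overlap, for a log2 fold change of -1.65 ± 0.28 (SE). *Pcdhb12* (ENSMUSG00000043458, 37435621 to 37438654) had 30, 29 and 27 in Sirt6mKO and 64, 65 and 59 in controls. Its groups were apart by more than their spread, and its log2 fold change was -1.10 ± 0.19 (SE). These genes and *Pcdhb9* were past both thresholds in all 6 fits that left out a library.

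*Pcdhb11*, which lies between *Pcdhb10* and *Pcdhb12*, had a signal of 43, 54 and 40 in Sirt6mKO against 92, 80 and 73 in controls. Its groups did not overlap, but the log2 fold change of -0.83 ± 0.19 (SE) was short of 2-fold. It was the gene that the adjusted p alone added to the 7.

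The genes at the start of the cluster were lower as well, at low read numbers. *Pcdhb2* (ENSMUSG00000051599, 37294812 to 37297624), the first beta gene of the table in gene order, had a signal of 3, 13 and 7 in Sirt6mKO against 20, 34 and 27 in controls. The Sirt6mKO values rest on 4, 17 and 7 reads. Its log2 fold change was -1.84 ± 0.44 (SE). *Pcdhb4* had 8, 11 and 11 in Sirt6mKO and 28, 44 and 23 in controls, for a log2 fold change of -1.53 ± 0.32 (SE). Both had separate groups.

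*Pcdhb5* had a signal of 22, 25 and 13 in Sirt6mKO against 52, 50 and 36 in controls, for a log2 fold change of -1.19 ± 0.28 (SE). *Pcdhb6* had 6, 5 and 6 in Sirt6mKO and 25, 13 and 16 in controls, for a log2 fold change of -1.47 ± 0.37 (SE). Every control library of both genes lay above every Sirt6mKO library, while the controls themselves were widely spread in *Pcdhb6*. *Pcdhb3*, between *Pcdhb2* and *Pcdhb4*, had 8, 8 and 3 in Sirt6mKO and 18, 30 and 13 in controls. Its log2 fold change was -1.56 ± 0.44 (SE), and it was not among the 7.

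*Pcdhb7* and *Pcdhb8*, in the middle of the stretch, differed less. *Pcdhb7* had a signal of 18, 15 and 24 in Sirt6mKO against 26, 26 and 20 in controls, and *Pcdhb8* had 14, 14 and 16 against 15, 23 and 25. In both genes the groups overlapped, and the log2 fold changes were -0.34 and -0.46 with standard errors of 0.28 and 0.30.

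**Figure D4:**
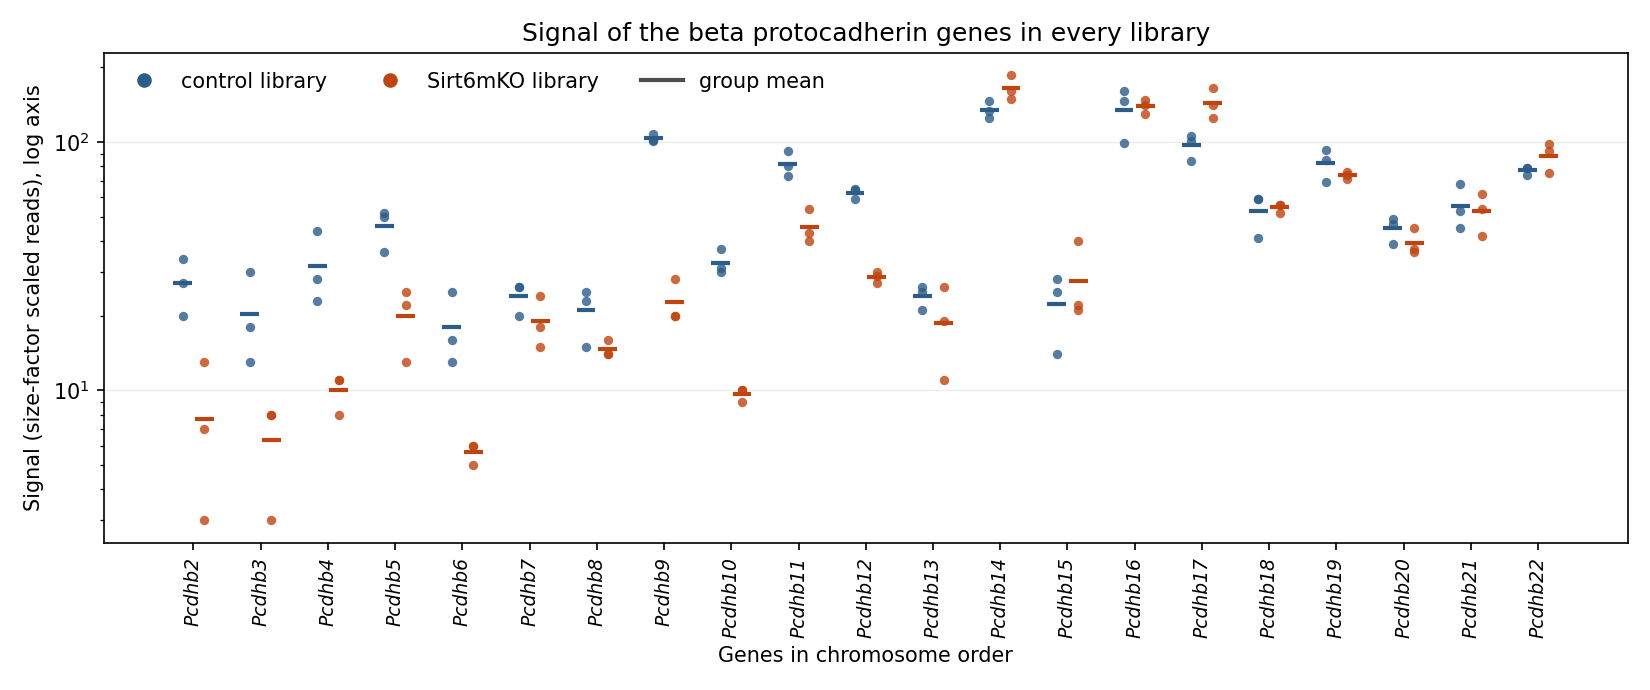
Signal of the 21 beta genes in every library (log axis), in chromosome order, with short lines at the group means. From *Pcdhb2* to *Pcdhb12* the Sirt6mKO libraries lie below the controls in 9 of 11 genes, and from *Pcdhb13* on the groups mostly overlap.

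How many beta genes were past both thresholds depended on single libraries. The count of 7 was 3 without Sirt6mKO replicate 1 and 3 without control replicate 2. It was 4 without Sirt6mKO replicate 2 and likewise without replicate 3, and 5 without control replicate 1 or control replicate 3. *Pcdhb6* was in none of these 6 fits past both thresholds, *Pcdhb5* in 1, *Pcdhb2* in 2 and *Pcdhb4* in 3. A fit of only genes that averaged a signal of 50 or more kept 9 beta genes. Of the 7, *Pcdhb9* alone was among them, and it was past both thresholds again. *Pcdhb2*, *Pcdhb4*, *Pcdhb5*, *Pcdhb6*, *Pcdhb10* and *Pcdhb12* average less and were not in this fit, which therefore says nothing about them. The median of the 9 beta genes was 0.063.

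Beyond *Pcdhb12* the values changed sign more than once along the cluster. *Pcdhb14* (ENSMUSG00000044043, 37447656 to 37456350) had a signal of 149, 186 and 160 in Sirt6mKO against 146, 125 and 133 in controls. Each Sirt6mKO library was above each control library, by little, and the log2 fold change was 0.29 ± 0.14 (SE). *Pcdhb17* had 141, 166 and 125 in Sirt6mKO and 106, 101 and 84 in controls. Its log2 fold change, 0.56 ± 0.16 (SE), was the highest of the beta genes, with separate groups.

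*Pcdhb16*, which is as abundant as these genes, had a signal of 141, 148 and 130 in Sirt6mKO against 160, 146 and 99 in controls, and its groups overlapped (log2 fold change 0.076 ± 0.17 SE). *Pcdhb13*, the neighbour of *Pcdhb12*, had 19, 26 and 11 against 26, 21 and 25, which overlapped too (-0.42 ± 0.33 SE). *Pcdhb22*, the last beta gene, had 98, 92 and 75 in Sirt6mKO and 79, 74 and 79 in controls, with overlap (0.18 ± 0.16 SE). The other 5 genes of this stretch had log2 fold changes of -0.19 to 0.29 with overlapping groups.

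The beta genes resemble each other in sequence, and the study's methods left out reads that align to more than 1 region. To see how far this could thin out single genes, the exons were cut into all possible stretches of 75 bases, the length of the reads. Of these stretches, at most 4.05% in a beta gene also occur in the exons of another gene that does not overlap it, the most in *Pcdhb12*, and none in a gamma gene. The share was 3.62% in *Pcdhb9* and 3.89% in *Pcdhb10*. These shares count exact matches of the full 75 bases in annotated exons only. Near matches and reads shortened by trimming were not counted, so the share of reads left out could be higher. In the gamma genes the reads of the constant exons fall on all genes at once and were left out by the counting that the methods describe, so that each gamma value stands for the variable exon.

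The gamma genes had slightly higher values in Sirt6mKO. Summed over all of them, Sirt6mKO libraries had 3200, 3690 and 3187 and controls 3155, 2843 and 2794. All Sirt6mKO sums were above the highest control sum, though the lowest, 3187, only just, and the ratio of the means was 1.15. By type, the ratio was 1.24 for the 12 A-type genes, 1.14 for the 7 B-type genes and 1.05 for the 3 C-type genes. The A-type sums of the groups did not overlap (1220, 1436 and 1241 against 1103, 954 and 1075), and those of the B type (923, 1024 and 963 against 932, 807 and 821) and of the C type did.

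*Pcdhga1* (ENSMUSG00000103144, with its variable exon starting at 37661793), the first gamma gene, had a signal of 114, 119 and 129 in Sirt6mKO against 79, 65 and 93 in controls. Its groups were apart, and the log2 fold change was 0.62 ± 0.16 (SE). The highest gamma value, 0.67 ± 0.19 (SE), was that of *Pcdhga5*, with 121, 166 and 115 against 103, 81 and 68. In all, 5 gamma genes had separate groups, each with Sirt6mKO higher, as did 11.1% of all tested genes, and the others were *Pcdhga2*, *Pcdhgb4* and *Pcdhgb8*. *Pcdhga5* and these 3 were named after their values were seen.

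*Pcdhgb6* had a signal of 191, 203 and 187 in Sirt6mKO against 188, 171 and 170 in controls, which overlapped at a log2 fold change of 0.14 ± 0.12 (SE). *Pcdhgb5* had 123, 169 and 154 against 165, 118 and 149, also with overlap (0.047 ± 0.17 SE). The means of *Pcdhgb6* were 194 ± 8.33 in Sirt6mKO and 176 ± 10.1 in controls (SD, n = 3 per group), while *Pcdhgb5* differed by less than the spread of its libraries.

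*Pcdhgc3* had 958, 1087 and 884 in Sirt6mKO, against the control values given above, for a log2 fold change of 0.11 ± 0.13 (SE). *Pcdhgc4*, the gamma gene with a lower mean in Sirt6mKO, had 47, 77 and 46 against 76, 50 and 90 (-0.34 ± 0.25 SE). *Pcdhgc5*, the last gene of the cluster, had 52, 66 and 53 against 64, 48 and 48 (0.099 ± 0.20 SE). The groups of all 3 genes overlapped.

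**Figure D5:**
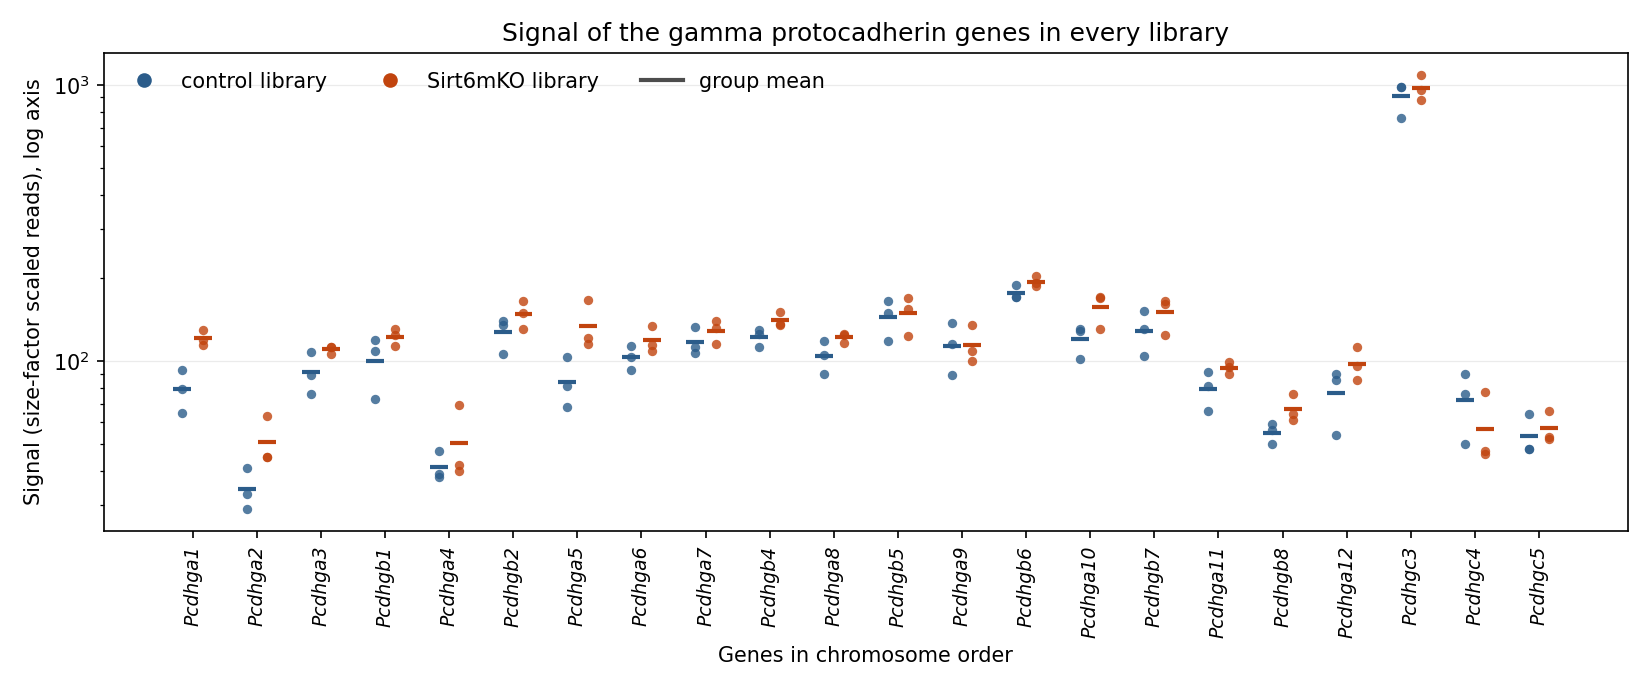
Signal of the 22 gamma genes in every library (log axis), in chromosome order, with short lines at the group means. *Pcdhgc3* lies between 760 and 1087 over both groups, and the group means of the other genes differ little.

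The genes around the clusters, which the choice of members did not use, were tested in the same fit. At an adjusted p of at most 0.05, 1.88% of all tested genes were lower and 2.64% were higher. Of 37 tested genes within 1 Mb of the annotated clusters or between their genes, 1 differed at that level. This was *3222401L13Rik* (37655451 to 37661742), a long non-coding RNA that ends 51 bases before *Pcdhga1*, on the same strand. Sirt6mKO libraries had 96, 95 and 87 and controls 59, 49 and 61. All Sirt6mKO libraries were higher (log2 fold change 0.71 ± 0.16 SE, adjusted p = 0.028, limma with Benjamini-Hochberg correction). The adjusted p from limma-trend was 0.14 without Sirt6mKO replicate 1, 0.12 without Sirt6mKO replicate 2, 0.063 without Sirt6mKO replicate 3 and 0.085 without control replicate 2.

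The other neighbours did not pass. *Gm20162*, a processed pseudogene beside *Pcdhb12* that was singled out after its values were seen, had a signal of 2, 1 and 3 in Sirt6mKO against 9, 4 and 11 in controls (log2 fold change -1.55 ± 0.55 SE, adjusted p = 0.15, limma with Benjamini-Hochberg correction). *Taf7*, which encodes a subunit of the general transcription factor TFIID and lies between the beta and gamma clusters, had 57, 52 and 47 against 55, 52 and 56. *Diaph1* and *Hdac3*, the formin and histone deacetylase genes after the gamma cluster, had log2 fold changes of -0.022 ± 0.15 (SE) and -0.018 ± 0.13 (SE). Over the 37 genes the median was -0.018. *Taf7*, *Diaph1* and *Hdac3* were also chosen with their values known.

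Genes that are known to act on the clusters were described by lists. Over all tested genes 18.1% had an unadjusted p under 0.05, and the counts at that level below are to be read against this share. Of 14 tested genes of CTCF and cohesin, 0 differed at the adjusted p of limma-trend with Benjamini-Hochberg adjustment, and 2 did at an unadjusted p under 0.05, with a median log2 fold change of 0.13. *Ctcf* itself had 238 ± 2.0 in Sirt6mKO against 260 ± 56.6 in controls, and *Rad21*, a cohesin subunit gene, 726 ± 55.2 and 589 ± 31.9 (SD, n = 3 per group). The log2 fold changes were -0.10 ± 0.15 (SE, adjusted p = 0.80, limma with Benjamini-Hochberg correction) and 0.30 ± 0.11 (SE, adjusted p = 0.15). The value of *Ctcf* turned to 0.040 without control replicate 2. *Nipbl*, which loads cohesin on DNA and had the highest signal of the list, stood at 0.029 ± 0.13 (SE, adjusted p = 0.94).

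Of 27 tested genes of chromatin silencing, 2 were higher in Sirt6mKO and none was lower. *Zfp110*, a gene of a KRAB zinc finger protein, had 318, 277 and 287 in Sirt6mKO and 207, 180 and 154 in controls. It was higher in every Sirt6mKO library (log2 fold change 0.71 ± 0.13 SE, adjusted p = 0.010, limma with Benjamini-Hochberg correction), with an adjusted p of 0.078 without Sirt6mKO replicate 1. *Atf7ip*, whose protein stabilises the histone methyltransferase SETDB1, had 1175, 1142 and 1067 against 845, 876 and 776 (0.44 ± 0.10 SE, adjusted p = 0.032 in limma). With any 1 library left out the adjusted p of *Atf7ip* was 0.051 to 0.15. *Smchd1*, whose protein represses the clusters, had a log2 fold change of 0.22 ± 0.11 (SE, adjusted p = 0.29 in limma). *Setdb1* had -0.037 ± 0.12 (SE, adjusted p = 0.92). *Dnmt3b*, a DNA methyltransferase gene that sets promoter choice in neurons, had -0.44 ± 0.27 (SE, adjusted p = 0.43). The median over the 27 genes was -0.11.

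Partners in proteolysis and signalling, among them the enzymes that cut protocadherins, did not pass in any of 21 tested genes, with 2 at an unadjusted p under 0.05 in limma-trend and a median of 0.0079. *Ret* passed where control replicate 3 was left out (log2 fold change -0.88, adjusted p = 0.0029 in limma). The most abundant of them, *Marcks*, had a log2 fold change of -0.079 ± 0.14 (SE, adjusted p = 0.84, limma with Benjamini-Hochberg correction).

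A few genes of the cadherin superfamily outside the clusters passed the adjusted p, as did 1.88% of all tested genes with lower and 2.64% with higher values. Of 8 tested non-clustered protocadherins 3 were lower in Sirt6mKO and none was higher. *Pcdh17* (chromosome 14, 84443563 to 84539002) had a signal of 7, 7 and 6 in Sirt6mKO against 54, 108 and 59 in controls. All Sirt6mKO libraries were far below the controls (log2 fold change -3.22 ± 0.31 SE, adjusted p = 0.00011, limma with Benjamini-Hochberg correction), and it was past both thresholds whichever library was left out. *Pcdh9* had 46, 55 and 59 against 90, 96 and 82 (-0.74 ± 0.17 SE, adjusted p = 0.029 in limma). Its adjusted p was 0.14 without Sirt6mKO replicate 1, 0.091 without Sirt6mKO replicate 2, 0.065 without control replicate 1 and 0.097 without control replicate 2.

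*Pcdh15* had 1, 0 and 0 in Sirt6mKO, all at or under 3 reads, and 2, 15 and 22 in controls. The mean of the controls was 5.15-fold the floor of 3 reads in the Sirt6mKO libraries (adjusted p = 0.042, limma with Benjamini-Hochberg correction). This ratio bounds the Sirt6mKO side alone, and control replicate 1, at 2, was itself under its floor of 3.69. When a library was left out, the adjusted p in limma stayed under the threshold only without control replicate 1. It rose to 0.098 to 0.16 without any other. *Pcdh7*, the most abundant of the list, had 432 ± 43.4 in Sirt6mKO and 468 ± 50.03 in controls (SD, n = 3 per group), which is within the spread. The median over the 8 genes was -0.43.

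Of 6 tested genes of the large Fat, Dchs and Celsr cadherins, which act in planar polarity and growth, 1 differed. *Celsr2* (chromosome 3, 108390851 to 108415552) had 22, 27 and 28 in Sirt6mKO and 82, 63 and 70 in controls (log2 fold change -1.45 ± 0.21 SE, adjusted p = 0.0019, limma with Benjamini-Hochberg correction), without overlap. *Fat1*, the most abundant, had -0.27 ± 0.14 (SE, adjusted p = 0.35 in limma), and the median was -0.077. *Fat4* passed where control replicate 3 was left out (-0.82, adjusted p = 0.033 in limma). Of 10 tested classical cadherins and catenins 1 differed, in the other direction. *Cdh4* (chromosome 2, 179442431 to 179899373), the gene of R-cadherin, had 172, 247 and 214 against 77, 64 and 34 (1.90 ± 0.25 SE, adjusted p = 0.0013 in limma). *Cdh15*, the gene of M-cadherin, a MuSC adhesion protein, had 1543 ± 170 in Sirt6mKO and 1500 ± 82.0 in controls (SD, n = 3 per group), which is within the spread, and the median was 0.0066.

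Some markers of fibroblasts and of myofibers passed the adjusted p with higher values in Sirt6mKO, and others did not pass. The study's isolation of MuSCs removed cells with Sca1, CD45 or CD31 on their surface before sorting, and whether this step was used for these libraries is not stated for them. *Ly6a*, the gene of Sca1, was at or under 3 reads in every library, and *Pecam1*, the gene of CD31, had a signal of 22, 27 and 24 in Sirt6mKO against 11, 4 and 29 in controls, with overlap. Of 8 tested fibroblast markers 4 were higher in Sirt6mKO, namely *Col1a2*, *Col1a1*, *Clec3b* and *Pdgfra*. The summed signal of all 11 markers was 9576 to 11641 in Sirt6mKO and 6561 to 10221 in controls, with overlap. Most of it was *Col3a1*, which differed little (log2 fold change 0.061 ± 0.16 SE). The median log2 fold change of the tested markers was 1.66 for fibroblasts, 1.46 for myofibers and -0.15 for MuSCs. *Pdgfra*, the defining surface receptor, had 14, 22 and 38 against 9, 4 and 2, and *Mfap5* was at or under 3 reads everywhere, like *Ly6a*. *Pdgfra* passed the adjusted p in only 1 of the 6 fits without a library, the one without control replicate 1, with 0.057 to 0.13 in the others, and so did *Col1a1*, with 0.096 to 0.22 in the others. *Dcn* passed where Sirt6mKO replicate 1 was missing (adjusted p = 0.032 in limma). Of 9 myofiber markers 3 were higher, *Acta1*, *Mylpf* and *Ttn*, with sums of 993 to 2458 against 652 to 831. Among the 6 fits that left out 1 library, *Acta1* passed only where Sirt6mKO replicate 3 was missing, and its adjusted p lay between 0.074 and 0.21 in the other 5. In that same fit *Ckm*, *Myh4*, *Myl1* and *Tnnt3* passed too, with log2 fold changes of 1.68 to 2.61. *Ttn* did not pass without Sirt6mKO replicate 1 (0.075) or 2 (0.072). *Mylpf* did not pass without Sirt6mKO replicate 1 (0.14), Sirt6mKO replicate 2 (0.13) or control replicate 2 (0.071). Of 12 MuSC markers *Pax7* and *Chrdl2* were lower and *Cd34* and *Des* higher, with sums of 14960 to 15434 against 15659 to 17576. *Cd34* did not pass without Sirt6mKO replicate 2 (0.14), Sirt6mKO replicate 3 (0.11) or control replicate 1 (0.088), nor *Des* without Sirt6mKO replicate 1 (0.14), Sirt6mKO replicate 3 (0.091), control replicate 1 (0.061) or control replicate 3 (0.078). The part of these cells in the protocadherin values was not tested.

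For the remaining cell types no marker passed the adjusted p of limma-trend with all 6 libraries. Some did when 1 library was missing, all with higher values in Sirt6mKO. Without Sirt6mKO replicate 1 these were the tenocyte markers *Thbs4* (log2 fold change 4.59, adjusted p = 0.0018 in limma), *Fmod* (4.55, adjusted p = 0.0018) and *Tnmd* (3.73, adjusted p = 0.025). *Notch3*, listed here as a mural cell marker, passed without control replicate 1 (adjusted p = 0.033 in limma), and *Pecam1* without control replicate 3 (adjusted p = 0.041). Schwann cell markers summed to 554 to 662 in Sirt6mKO and 615 to 649 in controls, with 6 tested genes, 1 of them at an unadjusted p under 0.05, and a median of -0.16. Neuron markers summed to 1436 to 1591 against 1749 to 1801, nearly all of it *Map2*, while *Elavl3*, *Nefm* and *Snap25* were at or under 3 reads in every library, and the 2 tested genes had a median of 0.058. The 5 tenocyte markers summed to 60 to 1060 against 39 to 60, with 3 at an unadjusted p under 0.05 and a median of 2.71, or 1.55 with the gene at the floor set to its bound. Mural cell markers summed to 4347 to 5438 against 2793 to 3836. Of 6 tested genes 1 had an unadjusted p under 0.05, and the median was 0.22. Most of the sum was *Notch3*, with 4104, 4873 and 3688 against 3289, 2967 and 2112 (log2 fold change 0.61 ± 0.16 SE, adjusted p = 0.056, limma with Benjamini-Hochberg correction). The other tested genes, *Acta2*, *Cspg4*, *Rgs5*, *Pdgfrb* and *Myh11*, ran from -0.057 to 0.53 with overlapping groups. From which cells the *Notch3* signal came was not tested. Endothelial markers summed to 24 to 39 against 12 to 38 and immune markers to 37 to 77 against 36 to 65, each with 1 tested gene, at an unadjusted p of at least 0.05.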

How the data were processed

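The authors deposited 1 table with a whole-number signal per gene and library. Per the labels, libraries came from a ribosomal depletion and a stranded kit with reads of 75 bases, whereas the methods name another kit. The submitters' processing notes name Trimmomatic 0.39, STAR 2.7.10a, featureCounts 2.0.2 and DESeq2 1.30.1 for mm10 (GRCm38). The methods name other versions, and whether counting used strand is not given in the sources used here. The factors of 0.558 to 1.37 behind the deposited signal were read from the gaps between its values.

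A limma-trend fit (limma 3.58.1, R 4.3.3) of log2(signal + 1) took in all 6 libraries, no covariate and the 14227 genes that averaged a signal of 5 or more, with Benjamini-Hochberg adjustment over them. Tables were handled in Python 3.11.15 (pandas 2.3.3). Gene models came from GENCODE for GRCm38, where 99.7% of the identifiers were found. The members, the gene lists, the named genes and the alternatives were chosen with earlier results of these data known. Named members were those past both thresholds, the 4 markers *Pcdhb9*, *Pcdhb10*, *Pcdhb12* and *Pcdhb14*, the C-type genes, and the 3 highest, the first and the last of each cluster. Named genes outside were *Sirt6*, *Pax7*, 5 regulators (*Ctcf*, *Rad21*, *Smchd1*, *Dnmt3b* and *Setdb1*), genes of lists or flanks at an adjusted p of at most 0.05, and the highest of each list. Other beta genes were described to give the whole cluster. Genes that passed only when a library was left out were named after their values were seen. The limit of 3 reads covers counting error only. The procedure was also run on simulated data in which every gene had the same setting for the spread between libraries. The deposited genes differ in spread, and no statement here rests on that run. No protein or promoter sequence is given.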

Additional observations from a re-analysis of the deposited data

How the results depend on the processing

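Scaling by median ratios, by library totals or by a trimmed mean of log ratios left all counts of beta and gamma genes as they were, and the median of all genes stayed within 0.1 of 0. With only genes averaging a signal of 50 or more, 76 genes were higher and 52 lower, with 1 beta gene, *Pcdhb9*, among the lower. The beta median was 0.063, since 9 of the 21 beta genes remain in the fit. Of the beta genes past both thresholds in the main fit, only *Pcdhb9* averages that much, and the others were not refitted. Without a filter, 4 beta genes were past both thresholds among 25166 tested. A pseudocount of 0.1, and likewise limma voom on the recovered reads, gave 6 beta genes, without *Pcdhb6*. The adjusted p alone gave 376 higher and 267 lower genes. With 1 library left out, the genes past both thresholds were 97 to 291 higher and 84 to 152 lower, and the beta genes among them 3 to 5. No gamma gene was past both thresholds under any alternative. A pseudocount of 5 moved the log2 fold changes of *Pcdhb6*, *Pcdhb10* and *Pcdhb12* by more than their spread, all still below 0. The median control levels per kb moved by less than their spread under every alternative, among them the exon length on the same strand, which was chosen after seeing the data.

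Libraries with the same number correlated by 0.023, 0.066 and 0.19 in their deviations from the group means, and not every library correlated best with its own number, so the numbers were not taken to pair the samples. With the replicate block, 268 genes were higher and 167 lower past both thresholds, and 8 beta genes were lower. The log2 fold changes of members are the same with the block, since the design is balanced.

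Among genes outside the clusters, 8 had a log2 fold change near 0 that turned sign when a library was left out. It ran from -0.21 to 0.087 for *Sirt6*, from -0.28 to 0.040 for *Ctcf*, from -0.13 to 0.12 for *Nipbl* and from -0.13 to 0.015 for *Setdb1*. For *Marcks* it ran from -0.24 to 0.068, for *Cdh15* from -0.028 to 0.13, for *Col3a1* from -0.087 to 0.20 and for *Pmp22* from -0.056 to 0.034. The alternatives of pseudocount, filter and fit were not applied to sums and levels, which come from no fit. Depth limits the alpha genes, with at most 2 reads per library, and the first beta genes, such as *Pcdhb2* with 4 to 47 reads.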
